A study of Mus musculus with 30 samples.

Results

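The mitochondrial ribosomal protein genes were followed in tdTomato-tagged interneurons sorted from the medial prefrontal cortex (mPFC). Members were taken by symbol, as every row of the deposited table that begins with Mrpl or Mrps and a digit and holds no hyphen. This gave 77 of 23993 genes, 48 named Mrpl and 29 named Mrps. The libraries came from C57BL/6 mice aged 6 to 12 weeks, heterozygous for Sst-Cre or Pvalb-Cre and carrying the Cre-dependent tdTomato reporter Ai9. The tag marks any cell in which the Cre was active, then or earlier. Nonstressed Sst mice gave 7 female libraries and 7 male libraries, Sst males exposed to chronic unpredictable stress (CUS) for 14 days gave 3, and nonstressed Pvalb males gave 7. The titles of 4 nonstressed Sst males carry a running number, as SST3-M does, and these are called numbered. The other 3 nonstressed Sst males and all 3 CUS males carry longer numbers that read like dates, such as SS04031R, and are called dated; the labels do not say what these numbers mean. The labels hold 6 further samples (nonstressed or CUS females), which are not analysed here.

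Mitochondria make a few subunits of the respiratory chain on a ribosome of their own. Its RNAs come from mitochondrial DNA, while all its proteins are encoded in the nucleus, made in the cytosol and imported. Mrpl genes encode proteins of the large subunit, which forms peptide bonds, and Mrps genes those of the small subunit, which reads the message. Some of these proteins descend from bacterial ribosomal proteins and others were added later in evolution. A few symbols mislead: the products of Mrps30 and of Mrps18a sit in the large subunit, and that of Mrps36 is now known as a part of the 2-oxoglutarate dehydrogenase complex of the citric acid cycle.

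The 77 genes lay on 17 chromosomes, with 10 on chromosome 11 at most and 0 on X or Y, by the RefSeq annotation of GRCm38.p6. Their transcripts were short. The longest coding transcript had a median of 1213 bases in the 76 members found in GENCODE M1, against 3031 bases over 12659 coding genes tested. Another RefSeq gene overlapped 25 members, and 4 had a named pseudogene, so reads of these genes could be shared in counting. Promoter windows, from 250 bases before to 50 after the start, were found for 68 members. Each was searched on both strands for the core letters of motifs known from genes of mitochondrial proteins. CCGGAAG, the core that ETS factors bind, was in 25 members (36.8%) and in 9.93% of all 27025 genes with a window. It was in 18.2% of the genes tested in the comparison of the sexes. GCGCATGC, the core of the NRF1 motif, was in 11.8% of members, 3.05% of all and 5.62% of the genes tested. AAGATGG, a YY1 core, was in 19.1% of members, 7.28% of all and 8.16% of the genes tested. In 63 cytosolic ribosomal protein genes the shares were 38.1% (ETS), 4.76% (NRF1) and 15.9% (YY1). In 66 nuclear subunits of oxidative phosphorylation they were 24.2%, 15.2% and 15.2%. Shares above those of the genes tested were thus not particular to the members. These matches describe letters only. Of the 68 members, 31 held none of the motifs, 28 held 1 and 9 held 2.

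The stretches below show what these windows look like, as the 120 bases before the start on the gene's own strand, with matched letters in capitals. Mrpl52 was the member with the highest mean over all samples and has an ETS and a YY1 match. Mrpl32 has 4 NRF1 matches, 2 of them overlapping in 1 palindrome, since the NRF1 core and its reverse complement share letters. Its window also has a YY1 match outside the stretch shown. Mrps36 and Mrps30, which passed the test between dated and numbered males described further on, have none in the window.
Mrpl52 (chr14:54426789-54426908, plus strand): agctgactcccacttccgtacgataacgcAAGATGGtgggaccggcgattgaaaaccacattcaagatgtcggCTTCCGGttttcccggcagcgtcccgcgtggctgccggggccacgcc
Mrpl32 (chr13:14613038-14613157, minus strand): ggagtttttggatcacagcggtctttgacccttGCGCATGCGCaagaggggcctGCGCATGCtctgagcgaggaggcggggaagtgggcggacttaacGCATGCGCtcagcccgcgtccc
Mrps36 (chr13:100744660-100744779, minus strand): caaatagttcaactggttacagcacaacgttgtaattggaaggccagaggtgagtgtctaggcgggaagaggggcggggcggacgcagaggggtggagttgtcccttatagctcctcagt
Mrps30 (chr13:118387253-118387372, minus strand): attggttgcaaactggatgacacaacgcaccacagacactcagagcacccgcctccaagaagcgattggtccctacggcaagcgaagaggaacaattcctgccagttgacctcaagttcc
Mrpl46 and Mrps11 are the only members within 100 kb of each other. They start in opposite directions from either side of a stretch of 41 bases (chr7:78783090-78783130, plus strand), which itself holds none of the motifs.
Mrpl46 to Mrps11: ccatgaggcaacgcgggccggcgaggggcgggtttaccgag

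Some libraries limit what can be compared. The libraries PV0-M and PV2-M hold almost equal values (SD of the log2 ratio 0.0170, with 0.225 for the next closest pair of their group), and so do SST1-M and SST0-M (0.0212 and 0.267). Each pair was averaged and counted as 1 sample, which left 22 samples. Small nucleolar and Cajal body RNAs held 53.5% to 75.7% of all FPKM (fragments scaled by transcript length and library size) in the 6 dated libraries and 1.87% to 8.29% elsewhere. Summed FPKM of 12 microglia markers ran from 3793 to 10677 over all libraries, and that of 10 interneuron markers from 5.46 to 71.4. Sst itself was 0 to 49.3 FPKM in Sst libraries and 12.3 to 30.5 FPKM in Pvalb libraries. Pvalb was low throughout, at 0.882 to 5.07 FPKM in Pvalb libraries and 0 to 1.93 FPKM in Sst libraries. The paper reports that each of these transcripts was enriched in its own sorted cells. Here the marker sums, and Sst in most Sst libraries, go against the sorted label, while Pvalb leaned with it at low levels. In such bulk samples, fewer cells of a type and less RNA per cell cannot be told apart. Xist was 300.2 to 333 FPKM in PV1-M, PV4-M and PV5-M, which are labelled male, and at most 6.64 FPKM in the other male libraries.

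Mitochondrial ribosomal protein genes were expressed throughout. All 77 were above 0.4 FPKM, the study's limit for expression, in every library but SST0-M and SST1-M (72 each) and PV5-M (76). Their mean level, as mean log2(FPKM + 1) per library, spanned only 3.29 to 3.74. It was 3.51 ± 0.04 in Sst females (SD, n = 7), 3.58 ± 0.18 in numbered Sst males (n = 3) and 3.52 ± 0.13 in Pvalb males (n = 6). It was 3.32 ± 0.04 in dated Sst males (n = 3) and 3.34 ± 0.01 in CUS Sst males (n = 3). The 6 dated libraries lay between 3.29 and 3.37, just below the lowest numbered male, SST4-M (3.39), and the averaged Pvalb pair (3.30) fell among them. Genes of the cytosolic ribosome were much higher, between 5.90 and 7.31 on the same scale. Nuclear subunits of oxidative phosphorylation lay between 4.36 and 5.74.

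**Figure D1:**
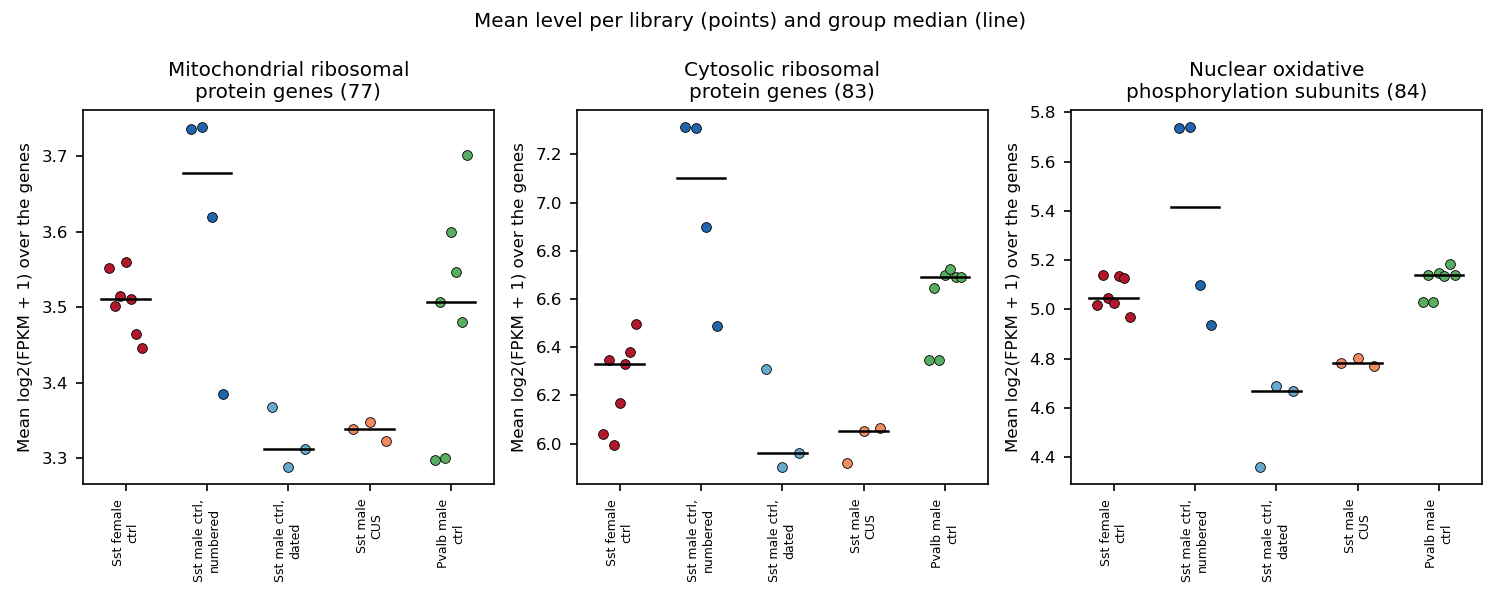
Mean log2(FPKM + 1) per library (points, coloured by group; vertical axes differ and do not start at 0) of the 77 mitochondrial ribosomal protein genes, 83 cytosolic ribosomal protein genes and 84 nuclear oxidative phosphorylation subunits, with the group median as a line. The mitochondrial genes span 3.29 to 3.74, with SST0-M and SST1-M highest and the dated libraries near 3.3.

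The members differed far more among themselves than their mean did among libraries. FPKM is scaled for transcript length, so levels can be set side by side. Mrpl52, Mrpl18, Mrps21 and Mrps33 had the highest means over 22 samples, 70.8, 56.7, 49.6 and 34.1 FPKM. The order differed by group, and in Sst females Mrpl52 (35.7 FPKM) averaged less than each of the other 3 (56.2, 49.4 and 38.6 FPKM). Mrpl21, Mrpl11, Mrpl15 and Mrpl57 had the lowest, 3.40, 3.77, 4.05 and 4.68 FPKM. The median member averaged 10.6 FPKM. Mrpl12, whose product also binds the mitochondrial RNA polymerase, averaged 11.3 FPKM (3.87 to 27.1). Mrps12, the counterpart of the bacterial protein in which streptomycin resistance arises, averaged 7.59 FPKM (1.84 to 17.4).

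Stability also varied. Among the 72 members with a mean above 5 FPKM, Mrpl41, Mrpl43 and Mrpl9 had the smallest SD of log2(FPKM + 1) over samples, 0.33, 0.36 and 0.38. Mrpl41 ran from 2.98 to 8.80 FPKM and Mrpl9 from 5.29 to 16.2 FPKM. Mrpl22, Mrps28 and Mrpl36 had the largest, 1.14, 1.03 and 1.02. The median SD of the 72 members was 0.65, against 0.54 for the 9423 genes of all kinds above 5 FPKM, 0.60 for cytosolic ribosomal protein genes and 0.67 for oxidative phosphorylation subunits. Without the pair SST0-M and SST1-M these were 0.60, 0.49, 0.53 and 0.60. The neighbours Mrpl46 and Mrps11 had means of 8.66 and 6.79 FPKM, and each had its lowest value in that pair (2.32 and 2.41 FPKM).

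**Figure D2:**
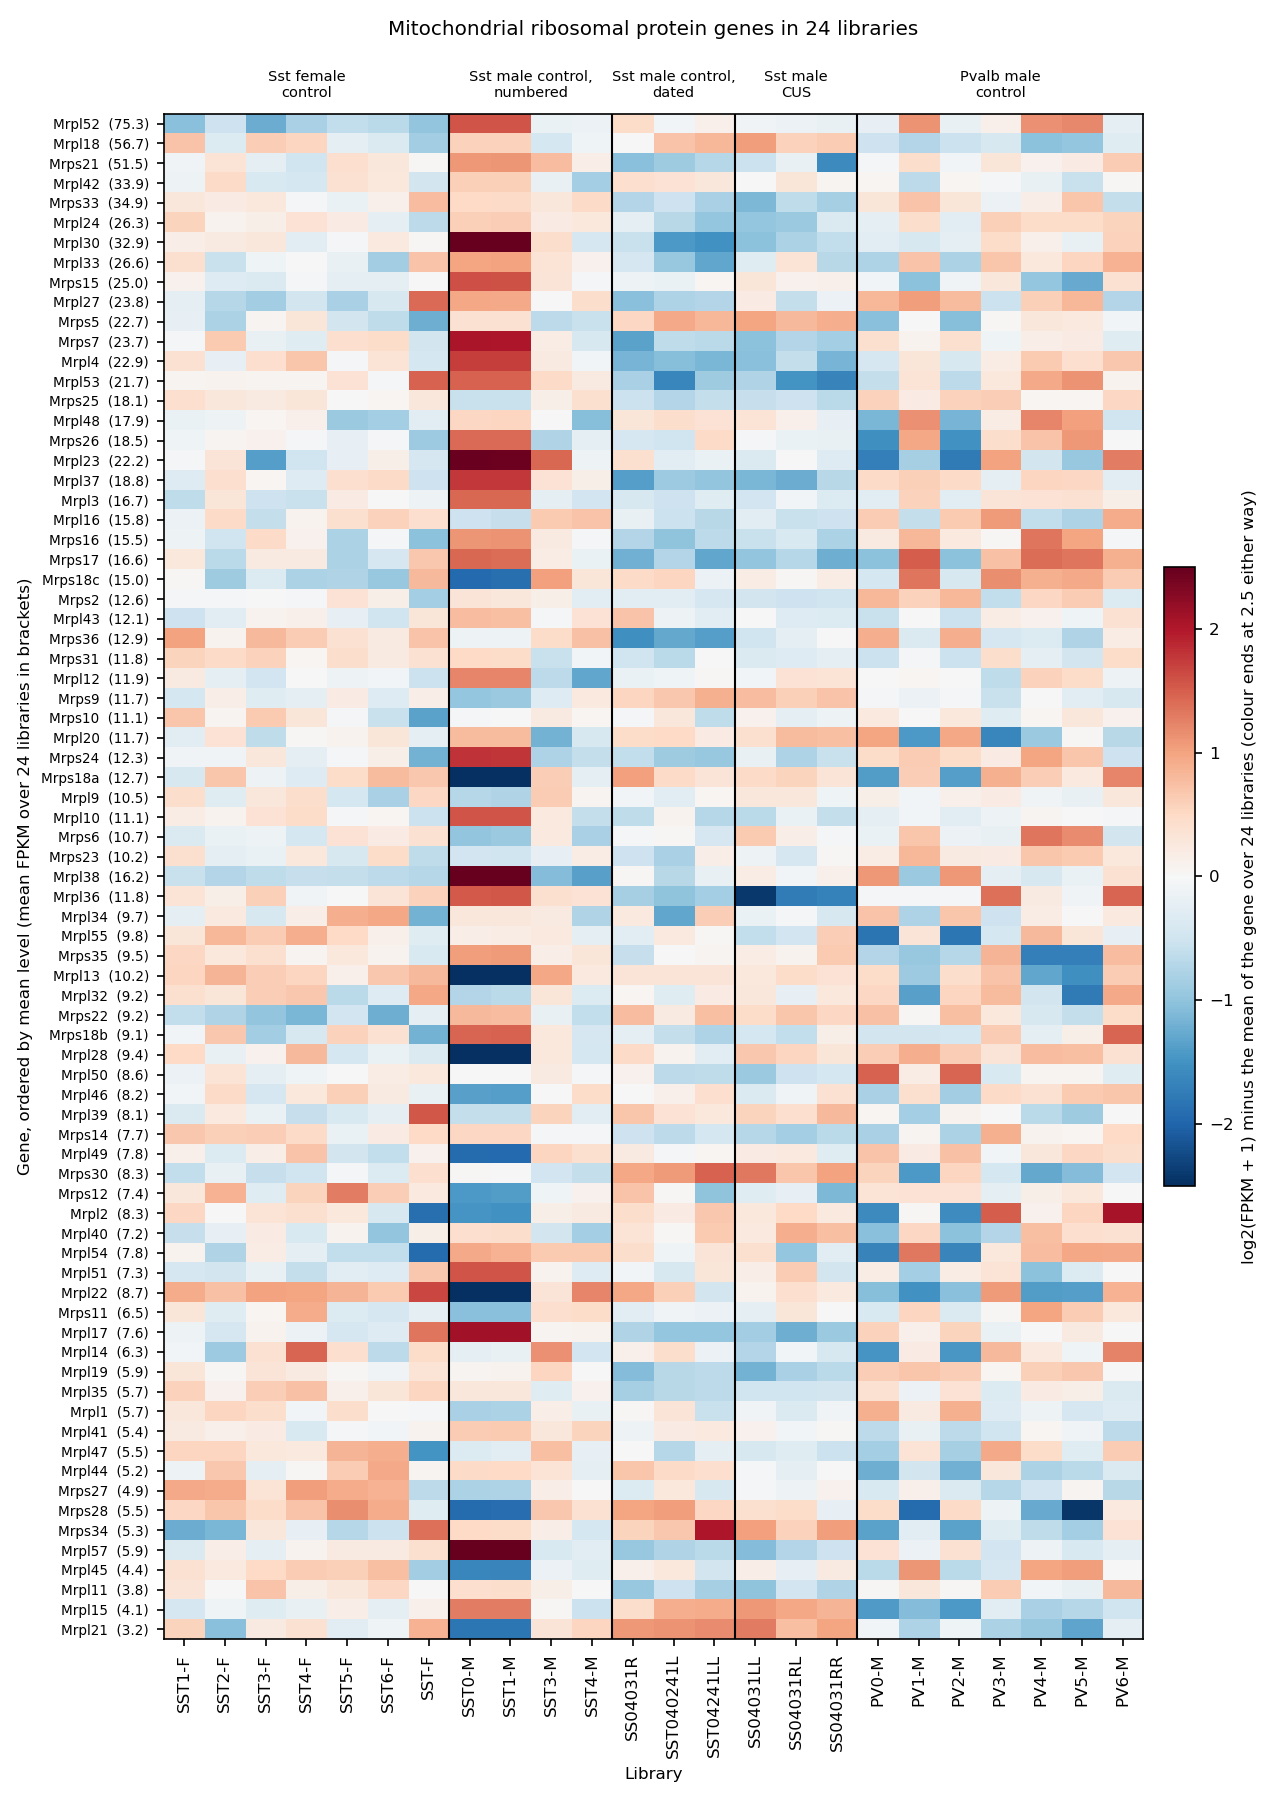
Level of each of the 77 genes (rows, highest mean at the top, mean FPKM in brackets) in each of 24 libraries (columns, by group), as log2(FPKM + 1) minus the mean of the gene, red above and blue below it. SST0-M and SST1-M show the strongest colours in both directions, and Mrpl53, Mrpl4 and Mrpl36 are blue in the 6 dated libraries.

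SST0-M and SST1-M, taken as 1 averaged sample, stood apart in many of these genes. It held the highest of all 22 values for 27 members and the lowest for 15, together 54.5% of the 77. Over 14566 genes with a mean above 0.4 FPKM that share was 41.3%. Mrpl38 was 103 FPKM in the pair and 3.07 to 21.0 FPKM elsewhere, and Mrpl30 was 153 FPKM against 7.88 to 36.5 FPKM. Mrpl57 was 33.3 FPKM against 1.37 to 5.70 FPKM. Mrpl13 went the other way, with 0.189 FPKM in the pair and 2.22 to 17.3 FPKM elsewhere. Mrpl21, Mrpl22 and Mrpl28 were listed at 0 in both libraries of the pair. Such a 0 may come from an estimate that failed rather than from an absence of reads. The summed FPKM of the 77 genes was 2031 and 2028 in these libraries and 880.3 to 1213 in the others. Mrpl38, Mrpl30 and Mrpl13 were singled out after their values were seen. Counts of members that rest on numbered males are therefore also given without the pair.

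**Figure D3:**
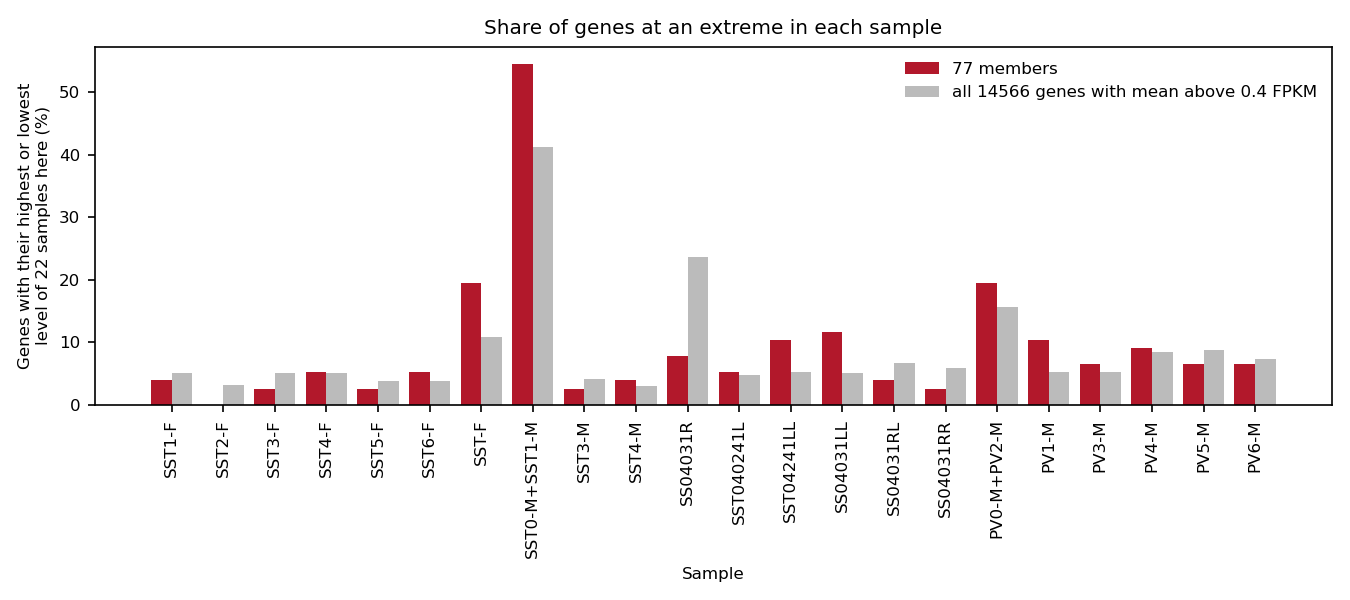
Share of genes (vertical axis, percent) that have their highest or lowest level of 22 samples in each sample (horizontal axis), for the 77 members (red) and for all 14566 genes with a mean above 0.4 FPKM (grey). The pair SST0-M and SST1-M holds 54.5% of the members and 41.3% of all genes.

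The first comparison asked whether nonstressed Sst females and numbered males differ. None of the 77 members passed an adjusted p of 0.05 (limma on log2(FPKM + 1), Benjamini-Hochberg over 14443 genes, of which 3.41% passed). At an unadjusted p below 0.05 there were 10 members (13.0%), against 24.3% of all genes. The differences, females minus males, had a median of -0.04 over the members and 0.05 over all genes, and 40 members were negative and 37 positive. The 95% interval of a member's difference, not adjusted for the number of genes, reached 0.78 to either side at the median. Passing the adjusted threshold took more, since differences down to -1.55 did not pass.

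The smallest p-values belonged to Mrpl52, Mrpl54 and Mrpl23, all large-subunit proteins. Mrpl52 was 26.3, 30.2, 31.6, 36.1, 39.8, 41.2 and 44.6 FPKM in the females and 56.8, 57.6 and 192 FPKM in the males. The groups did not overlap, which held for 3 members (3.90%; Mrpl54 and Mrpl41 are the others) and for 9.73% of all genes, and the difference was -1.26 ± 0.34 (SE, log2 scale; adjusted p = 0.0580, limma). Without SST0-M and SST1-M, the source of the 192 FPKM, it was -0.69 ± 0.19 (adjusted p = 0.0617). Mrpl54 was 0.972 to 7.55 FPKM in females, with a median of 3.92, and 10.8, 10.8 and 13.2 FPKM in males, a difference of -1.29 ± 0.39 (adjusted p = 0.0791). Mrpl23 was 5.46 to 20.1 FPKM in females, with a median of 13.5, and 14.4, 44.3 and 91.5 FPKM in males, so the groups overlapped (adjusted p = 0.0862). It has a named pseudogene. Summed microglia markers were 3951 to 7067 FPKM in females and 6325 to 10475 FPKM in numbered males, and their part in these differences was not tested. Without SST0-M and SST1-M, 1 member passed, Mrps31, and 6.22% of all genes. Without SST-F 5 members passed (Mrpl52, Mrpl54, Mrpl27, Mrps27 and Mrpl45) and 12.4% of all genes. These shares of members, 1.30% and 6.49%, lay below those of all genes.

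The choice of male libraries set the answer. Against the 3 dated males in place of the numbered ones, 28 members passed, 8 lower and 20 higher in females. Of all 14532 genes 41.5% passed, 19.1% lower and 22.4% higher, so 36.4% of members is no more than the share of genes at large. Against all 6 male samples 4 members passed (Mrpl52, Mrps22 and Mrpl54 lower, Mrpl35 higher), with 11.7% of all genes, and without the pair 10 members did, with 24.5% of all genes. Mrpl52 was lower in females in each of these fits, by 1.01 on the log2 scale against the dated males (adjusted p = 0.00106, limma; 0.00106 to 0.233 over 22 alternatives). Mrps36 was 12.2 to 24.03 FPKM in females and 3.26 to 4.13 FPKM in dated males (difference 1.95 ± 0.20, adjusted p = 2.5e-05, limma), while numbered males (10.3 to 19.6 FPKM) overlapped the females. These comparisons share the female samples. Between females and dated males, title series and sex cannot be told apart.

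CUS was compared within the dated libraries, 3 CUS against 3 nonstressed Sst males. None of the 77 members passed, and of 14186 genes 1 did (0.00705%). At an unadjusted p below 0.05 there were 5 members (6.49%), against 6.74% of all genes. The groups did not overlap for 11 members, 6 lower and 5 higher after CUS, which is 14.3% against 18.7% of all genes. The median difference was 0.02 over members and 0.00 over all genes. The 95% intervals reached 0.51 to either side at the median.

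Mrps36 had the smallest p. It was 3.26, 3.80 and 4.13 FPKM in dated controls and 7.73, 9.63 and 11.4 FPKM after CUS, a difference of 1.15 ± 0.19 (adjusted p = 0.647, limma). All CUS values were above all dated controls, while only the highest CUS value lay within the 10.3 to 19.6 FPKM of numbered controls and the others below it. Against the numbered controls the sign was the opposite (-0.60, adjusted p = 0.199, limma; 0.00925 to 0.896 over 17 alternatives). Mrps36 has 3 named pseudogenes. Mrpl36, a large-subunit counterpart of bacterial L36, was 4.18, 4.74 and 4.83 FPKM in dated controls and 0.954, 2.07 and 2.23 FPKM after CUS (-1.05 ± 0.24, adjusted p = 0.647). Mrpl44, which resembles RNase III enzymes, was 6.79, 7.12 and 8.36 FPKM in dated controls and 4.003, 4.70 and 4.74 FPKM after CUS (-0.62 ± 0.16, adjusted p = 0.647). Its gene overlaps Wdfy1. All 3 separated the CUS samples from the dated controls, but none passed over the 14186 genes tested. Markers of other cells differed between these groups, and their part in these values was not tested. Sums of 12 microglia markers were 3793 to 4559 FPKM after CUS and 4761 to 10677 FPKM in dated controls. Sums of 6 oligodendrocyte markers were 1600.3 to 1967 FPKM and 391 to 1284 FPKM, and of 6 endothelial markers 124 to 207 FPKM and 16.9 to 113 FPKM. The dated control SS04031R stood apart from the other dated controls (SD of the log2 ratio 0.635 and 0.656, against 0.267 between those). It is also the control whose title begins as those of the CUS libraries do, with SS04031. Without it, 0 members passed (limma) and 0.113% of all genes. Numbered controls in their place gave 7 members (5 lower and 2 higher after CUS), against 16.1% of all genes. Without the pair they gave 31 members and 44.4% of all genes. There CUS and title series cannot be told apart.

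**Figure D4:**
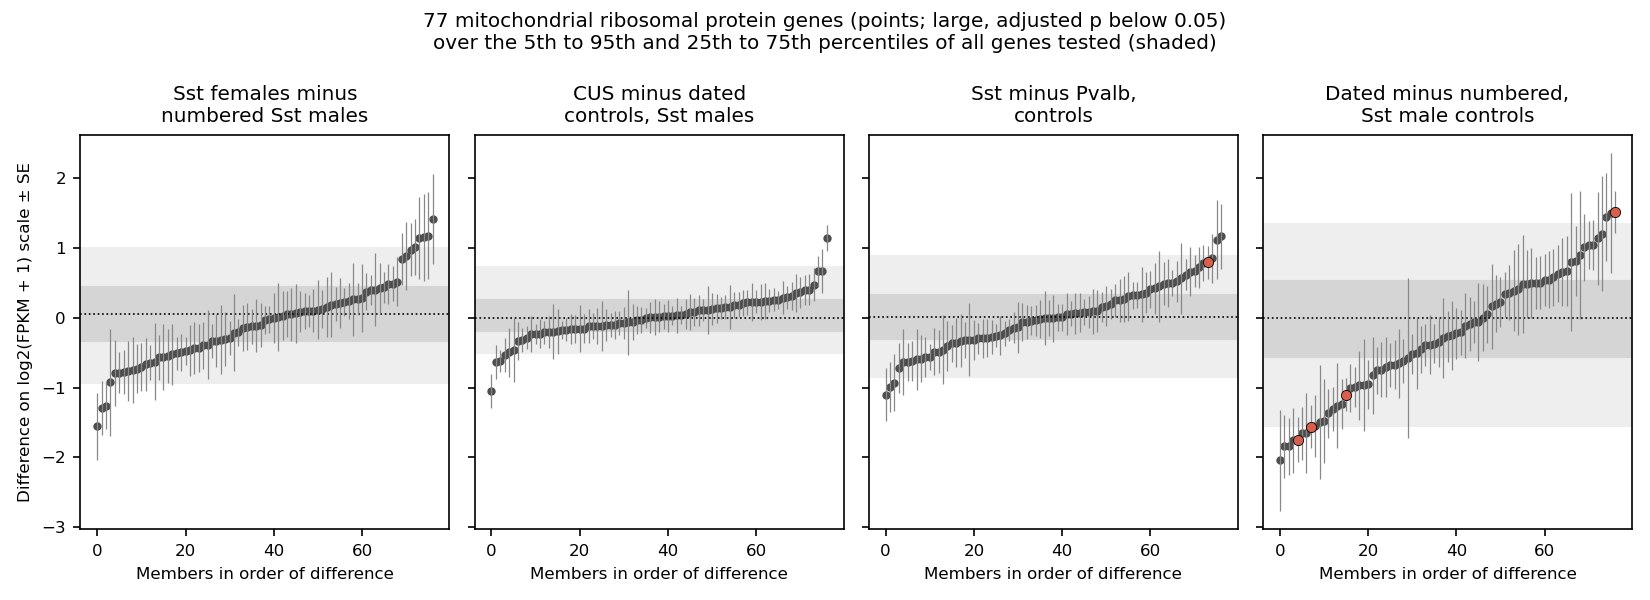
Difference of each of the 77 members (points, in order of size, bars ± SE) on the log2(FPKM + 1) scale in the comparisons of sex, CUS, cell label and title series, over the middle of the distribution of all genes tested (grey bands; dotted line, their median). Members past an adjusted p of 0.05 (large red points) number 0, 0, 1 and 4 from left to right.

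Sst and Pvalb controls were compared with 10 Sst samples (7 females and 3 numbered males) and 6 Pvalb samples. Of the 77 members, 1 passed, against 10.2% of 14483 genes. At an unadjusted p below 0.05 there were 14 members (18.2%) and 27.6% of all genes. The median difference, Sst minus Pvalb, was -0.00 over members and 0.01 over all genes. No member separated every sample of one label from the other. The share of all genes that did is not given here, so that count has no background. Markers of other cells differed with the label, and their part was not tested. The median sum of 6 excitatory neuron markers was 493 FPKM in Pvalb libraries, 52.6 FPKM in Sst females and 75.7 FPKM in numbered Sst males. That of 6 endothelial markers was 14.4, 83.5 and 76.5 FPKM, and that of 12 microglia markers 9426, 5008 and 8086 FPKM. The member that passed was Mrpl44. It was 3.94 to 10.2 FPKM in Sst samples (6.40 ± 2.39 in females, SD, n = 7, and 5.81 ± 1.67 in numbered males, n = 3) and 1.52, 2.36, 2.63, 3.24, 3.52 and 6.07 FPKM in Pvalb samples. The difference of Mrpl44 was 0.79 ± 0.24 (adjusted p = 0.0414, limma). It passed in 17 of 29 alternatives, with adjusted p from 0.0144 to 0.379, and was lost when any one of SST2-F, SST4-F, SST5-F, SST6-F, PV1-M, PV4-M, PV5-M, PV6-M or the pair PV0-M and PV2-M was left out.

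Without the pair SST0-M and SST1-M, 12 members passed and 18.1% of all genes. They were Mrpl52, Mrps22, Mrps16, Mrpl38 and Mrpl28 (lower in Sst) and Mrpl15, Mrps36, Mrpl44, Mrps27, Mrpl21, Mrps28 and Mrpl22 (higher). With Sst females alone 11 members passed, 5 lower and 6 higher, and 25.1% of all genes. That comparison also sets libraries labelled female against 6 Pvalb samples labelled male, 3 of them with Xist at 300.2 FPKM or more. With the 3 Pvalb samples whose Xist was below 100 FPKM, 0 members and 9 genes passed (limma).

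The Pvalb samples were not alike in these genes. PV1-M, PV4-M and PV5-M, the libraries with Xist at 300.2 FPKM or more, had Mrpl52 at 141, 142 and 148 FPKM, and PV6-M, PV3-M and the averaged pair had 54.4, 69.8 and 55.7 FPKM. Mrpl13 was 3.96, 2.77 and 2.22 FPKM in the first 3 and 11.8 to 14.2 FPKM in the others. Mrps35 was 3.87, 1.86 and 1.86 FPKM there, 15.8 and 15.0 FPKM in PV3-M and PV6-M, and 4.67 FPKM in the averaged pair. Mrps28 was 0.405 and 1.25 FPKM in PV1-M and PV4-M, listed at 0 in PV5-M, and 3.90 to 6.43 FPKM in the others. Mrpl22 was 1.55 to 1.79 FPKM in the first 3, 2.4998 FPKM in the averaged pair, and 14.2 and 12.4 FPKM in PV3-M and PV6-M. Mrpl13 and Mrps35 were chosen after their values were seen, and no test was made of this split.

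The females also fell into sets. Mrpl18, a large-subunit protein that binds ribosomal RNA, was 75.5, 80.05 and 85.6 FPKM in SST4-F, SST3-F and SST1-F. It was 40.2, 40.5 and 44.1 FPKM in SST6-F, SST2-F and SST5-F and 27.8 FPKM in SST-F. Mrps21 ran the other way, with 32.9, 39.4 and 44.4 FPKM in the first 3 and 57.4, 60.0 and 63.4 FPKM in the next 3. Mrpl44 was 3.999 to 4.95 FPKM in the first 3 and 8.002 to 10.2 FPKM in the next 3. The gene of Mrpl18 overlaps Tcp1. These sets were seen in the values and were not tested.

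The last comparison set the 3 dated against the 3 numbered nonstressed Sst males, which share line and sex. The labels state non-stress for the dated males, while the numbered males were assigned from their titles. Of the 77 members 4 passed (5.19%), against 4.11% of 14230 genes. At an unadjusted p below 0.05 there were 20 members (26.0%) and 23.6% of all genes. The groups did not overlap for 28 members, 23 lower and 5 higher in the dated libraries, which is 36.4% against 33.5% of all genes. The median difference, dated minus numbered, was -0.27 over members and -0.00 over all genes, with 46 members negative. It was -0.89 over cytosolic ribosomal protein genes and -0.65 over oxidative phosphorylation subunits.

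The members that passed were all named Mrps. Mrps36 was 3.26, 3.80 and 4.13 FPKM in dated and 10.3, 16.0 and 19.6 FPKM in numbered libraries (-1.75 ± 0.33, adjusted p = 0.0339, limma). Mrps21, a small-subunit protein with a bacterial counterpart, was 22.4, 24.8 and 28.3 FPKM in dated and 52.9, 81.5 and 101 FPKM in numbered libraries (-1.56 ± 0.31, adjusted p = 0.0403). Mrps33, a small-subunit protein without one, was 18.3, 19.2 and 22.5 FPKM in dated and 39.9, 45.7 and 46.3 FPKM in numbered libraries (-1.10 ± 0.24, adjusted p = 0.0498). Mrps30, of the large subunit despite its name, was the member that rose, with 14.6, 15.7 and 21.2 FPKM in dated and 4.33, 4.74 and 7.04 FPKM in numbered libraries (1.52 ± 0.31, adjusted p = 0.0413). Next by p came Mrpl53 (-1.84 ± 0.41, adjusted p = 0.0511) and Mrpl36 (-1.66 ± 0.38, adjusted p = 0.0571), both named after their values were seen. Over 13 alternatives Mrps36 passed in 8, Mrps21 and Mrps30 in 7 and Mrps33 in 3.

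**Figure D5:**
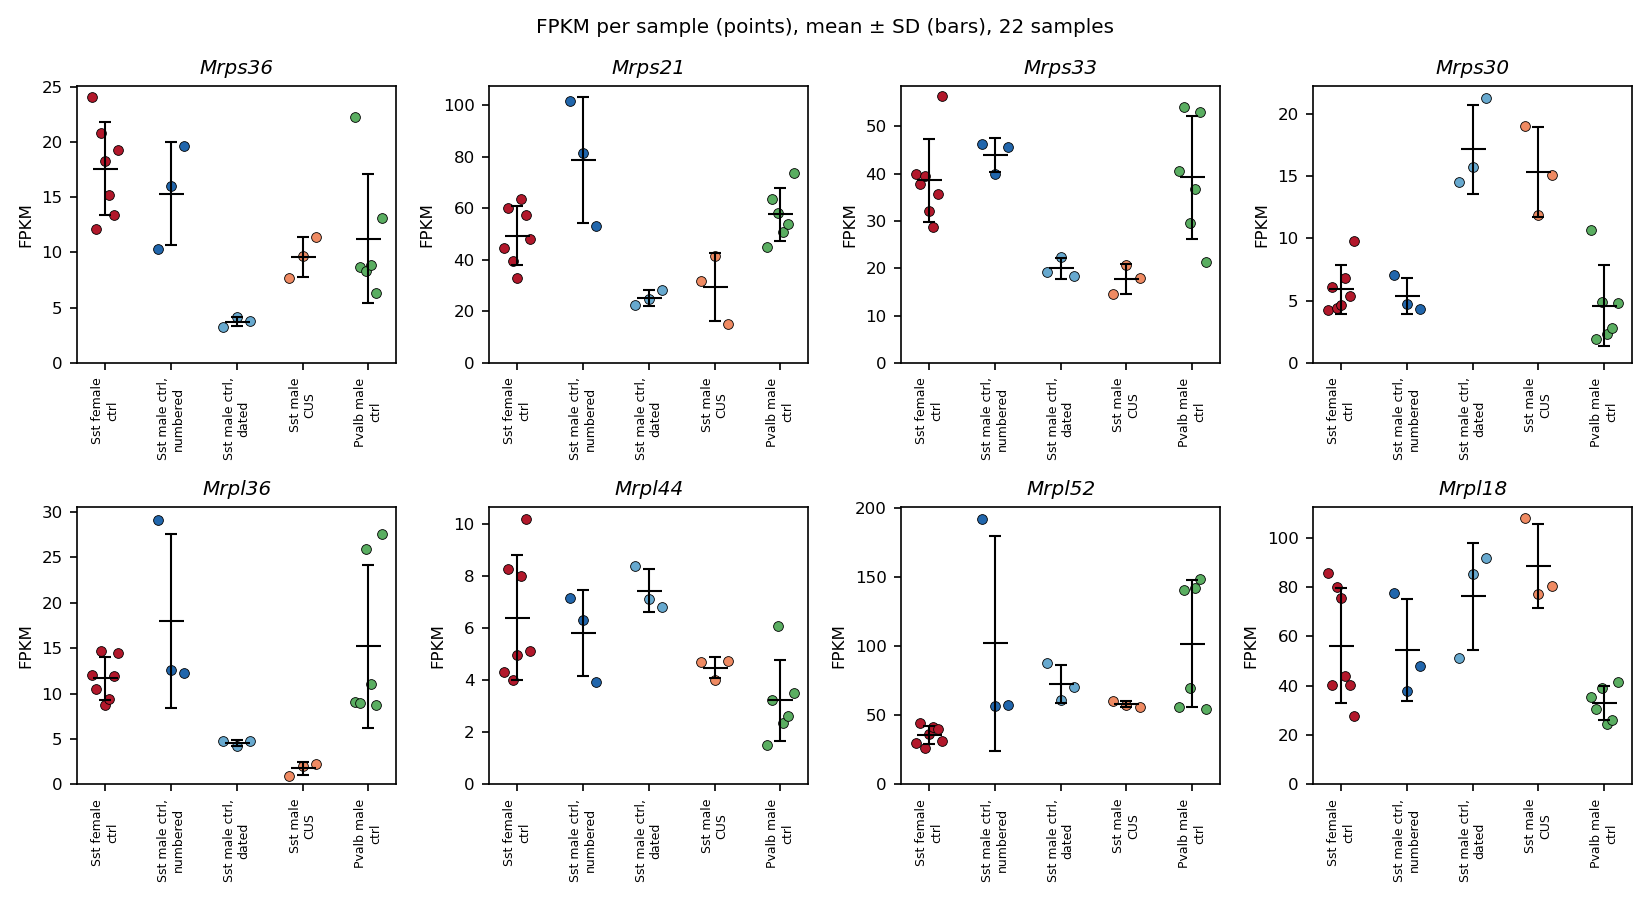
FPKM of 8 members in each of 22 samples (points), with the mean and SD of each group (bars; linear axes from 0). Mrps36, Mrps21, Mrps33 and Mrpl36 are lower and Mrps30 is higher in dated than in numbered controls, and Mrpl52 is lowest in Sst females (26.3 to 44.6 FPKM).

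The same 4 genes in the CUS libraries, which are dated too, had overlapping values with the dated controls for 3 of them. Mrps21 was 15.0, 31.9 and 41.4 FPKM, Mrps33 was 14.5, 17.95 and 20.8 FPKM and Mrps30 was 11.9, 15.1 and 19.0 FPKM. Females had 32.9 to 63.4 FPKM of Mrps21, 28.8 to 56.5 FPKM of Mrps33 and 4.26 to 9.78 FPKM of Mrps30. Without SST0-M and SST1-M, 16 members passed, 13 lower (7.52% of all genes were) and 3 higher (6.23% of all genes were), with 13.7% of all genes in either direction. Mrps36, Mrps21, Mrps33 and Mrps30 were among them. Leaving out any other single library left 0 members past the threshold, and the shares of all genes in those fits are not given here. The share of small nucleolar RNA differed with the title series, as given above, and its part in these values was not tested. Summed microglia markers overlapped, at 4761 to 10677 FPKM in dated and 6325 to 10475 FPKM in numbered libraries.

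Subunit names divided the members little in the title series, where ancestry divided them more, and more so without the pair. For sex and CUS the divisions by name and by ancestry were of similar size. In the title series the median difference was -0.26 for the 48 Mrpl and -0.28 for the 29 Mrps genes. It was -0.37 for the 45 members with a bacterial counterpart and -0.25 for the 31 without. Without the pair these were -0.21 and -0.25, and -0.29 and -0.048. For sex the medians were -0.01 and -0.12 by name and -0.04 and -0.13 by ancestry, and without the pair -0.012 and -0.042, and 0.0013 and -0.050. For CUS they were -0.04 and 0.04 by name and 0.04 and -0.03 by ancestry. The mean level of members with a bacterial counterpart was above that of members without in Sst females (3.58 and 3.38). The same held in numbered Sst males (3.62 and 3.52) and Pvalb males (3.58 and 3.44). It was below in dated Sst males (3.29 and 3.40) and CUS Sst males (3.33 and 3.35). No test was made between these sublists.

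The rest of the mitochondrial translation apparatus was read beside the members. Of 6 mitoribosomal proteins with other names (Dap3, Ptcd3, Aurkaip1, Chchd1, Ict1 and Gadd45gip1) and 24 assembly factors, 0 passed in any of the comparisons of sex, CUS, cell label and title series (limma, unadjusted p below 0.05 for 0 to 6 genes of a list). Among 11 translation factors 1 passed, Gfm2, a factor that helps recycle mitochondrial ribosomes. It was 35.3 to 47.1 FPKM in Sst females and 27.8 to 62.3 FPKM in Pvalb libraries, and was listed at 0 in all 10 Sst male libraries. No fold is given against a listed 0. Cytosolic ribosomal protein genes had 3 of 81 lower in the comparison of the sexes (3.70%, against 3.41% of all genes), with a median of -0.66. In the title series 13 of 80 were lower and 2 higher, and 10 of 82 oxidative phosphorylation subunits were lower (18.8% and 12.2% called, against 4.11% of all genes). Without SST0-M and SST1-M these shares were 32.5% and 28.0%, against 13.7% of all genes.

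Across the 77 genes, profiles of libraries were alike to different degrees. Pearson's r of log2(FPKM + 1) between samples was 0.90 to 0.92 among the 3 CUS samples and 0.82 to 0.89 between CUS and dated controls. It was 0.52 to 0.93 among females and 0.49 to 0.96 among Pvalb samples, and 0.31 to 0.60 between the pair SST0-M and SST1-M and any other sample. These values are across genes, which are not independent replicates, and pairs of samples share titles, depth and processing.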

How the data were processed

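RNA-seq of sorted interneurons was analysed in 24 libraries from 1 deposited table of FPKM with gene symbols. The authors depleted ribosomal RNA before cDNA synthesis and computed the FPKM values; the submitters' processing notes name TopHat2, Cufflinks, Cuffdiff and mm10, while the methods name mm9 with TopHat2 in 1 sentence and HISAT2, StringTie and mm10 in the next. They also name DESeq2 on counts, removal of samples far from the group mean, and ComBat, and do not say whether ComBat acted on the deposited FPKM. Counts were not used here, so the depth of each library is unknown and no counting interval is given. The paper states only a range of reads per sample. Steps between the lowest values gave an approximate relative depth of 0.463 to 2.51 (SST2-F = 1), with 19.8% to 43.0% of low genes at the step. That spread is wider than the paper's range of reads, and the reason was not tested. Of the 24 columns none was left out.

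Values were taken as log2(FPKM + 1), which understates changes of low genes. For each comparison limma 3.58.1 (R 4.3.3) was fitted to genes averaging over 0.4 FPKM in its samples, with a robust, trended eBayes and two-sided p-values. These were Benjamini-Hochberg adjusted over every gene in the fit, with a threshold of 0.05, and the procedure was tested on simulated data with 200 genes a comparison changed by 1 or 2 log2 units, of which, both sizes pooled, it called 58.5% (sex), 64.5% (CUS), 79.0% (Sst against Pvalb) and 9.0% (title series). Nothing in the labels says that libraries are separate mice, so p-values measure the spread between these libraries. Libraries of a group were averaged where their log2 ratio (genes above 5 FPKM) had an SD below 10% of that for the next pair. Transcripts of mitochondrial DNA were not analysed here. One gene's values are not reported here. Counting was not stated to use strand. Named genes were, per comparison, the 5 largest rises and falls among members past the threshold or the 3 smallest p-values, the 4 highest and lowest means, the 3 largest and smallest SDs above 5 FPKM, Mrps12, Mrpl12, genes listed at 0, and translation genes past the threshold; others were chosen after their values were seen. Members and lists were chosen with earlier results of these data known. Promoters and positions are from RefSeq GRCm38.p6, the same assembly as mm10. Alternatives were pseudocounts of 0.1 and 5, no filter, a mean above 1 FPKM, common median, quantile normalization, 1 fit over all groups, other control samples, a replicate block and leaving out each sample. Python 3.11.15, numpy 2.4.6, pandas 2.3.3 and matplotlib 3.10.9 were used otherwise.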

Additional observations from a re-analysis of the deposited data

Results flagged for a closer look

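In 46 sets of values (the mean level and 22 named genes in Sst females and in Pvalb samples), 4 held a sample far from the others of its group; chance flags about 1 set in 20. In Sst females SST-F had 22.3 FPKM of Mrpl22, with 10.5 to 13.7 FPKM in the other 6 samples, and 56.5 FPKM of Mrps33, with 28.8 to 39.9 FPKM in the others. In Pvalb samples the averaged pair PV0-M and PV2-M had 5.51 FPKM of Mrpl57, with 2.64 to 3.61 FPKM in the other 5, and 10.7 FPKM of Mrps30, with 1.95 to 4.91 FPKM in the others.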

How the results depend on the processing

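The counts of members past the threshold moved with the samples chosen. Shares of all genes called are given in brackets for most fits, and a count without one has no background here. For sex (0 as reported), the count was 1 with 1 fit over all groups (8.53%) and 4 with all male controls (11.7%). It was 10 with all male controls but SST0-M and SST1-M (24.5%) and 28 with dated male controls (41.5%). With single samples left out, it was 5 without SST-F (12.4%), 3 without SST4-M (7.55%) and 1 without SST0-M and SST1-M (6.22%). It was 0 without any other single sample, with 0.692% to 1.05% of all genes. The median difference of -0.04 became 0.11 with all, 0.18 with all but that pair and 0.25 with dated male controls. That median ran from -0.18 to -0.026 without single samples (-0.18 without SST4-M). For CUS (0), the count was 7 with numbered controls (16.1%), 31 with those but the pair (44.4%) and 0 without any single sample; the median of 0.02 became -0.089 with all male controls, -0.27 with numbered controls, -0.25 with those but the pair and -0.19 with controls of both sexes, and ran from -0.0066 to 0.036 without single samples. The CUS difference of Mrps36 turned to -0.60 with numbered controls, to -0.84 with those but the pair and to -0.30 with controls of both sexes. For Sst against Pvalb (1), the count was 2 with a pseudocount of 0.1 (9.89%), 2 with a common median (10.2%), 2 with quantile normalization (12.1%), 9 with 1 fit over all groups (18.9%), 3 with all Sst controls (7.8%), 0 with numbered Sst males only (0.0912%), 11 with females only (25.1%), 0 with low-Xist Pvalb samples (0.0622%), and 0 to 12 without single samples (12 without SST0-M and SST1-M, 18.1%; 8 without PV0-M and PV2-M, 19.9%); the median of -0.0037 became -0.12 with all Sst controls and ran from -0.041 to 0.038 without single samples. For the title series (4), the count was 1 with no filter (2.18%), 10 with quantile normalization (7.77%) and 23 with 1 fit over all groups (25.4%). It was 16 without SST0-M and SST1-M (13.7%) and 0 without any other single sample, and the median ran from -0.37 to -0.18. The cause of these shifts was not tested; 1 fit over all groups pools the spread of 22 samples.

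Title numbers did not pair the samples: correlations of deviations for equal numbers ran from -0.05 to 0.12. With the number as a replicate block, 0 members passed for sex (11 genes, 0.077%) and 1 for Sst against Pvalb, Mrps18c in place of Mrpl44. The same samples without the block gave 0 members for sex (0.168% of all genes) and 3 for Sst against Pvalb. Shares of all genes in these Sst against Pvalb fits are not given here, so the counts of 1 and 3 have no background. The fits without the block, and those without the pair among other controls, were added after seeing the data. No paired analysis was possible for CUS because its groups share only 1 title stem, SS04031, held by all 3 CUS samples and 1 control, so that the stem and CUS can hardly be told apart; dated and numbered titles share none. The lack of counts means that depth could not be weighed, and leaving a group with 2 samples widens every interval.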
